A study of Mus musculus with 20 samples.

Results

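This account concerns 10 genes of the cellular response to low oxygen in C2C12 myotubes exposed to hydrogen peroxide (H2O2). The genes were Hif1a, Egln1, Egln3, P4ha1, P4ha2, Pdk1, Higd1a, Bnip3, Bnip3l and Ndrg1. Every probe set of the array whose only gene symbol was 1 of these was taken as a member, which gave 9 of the 10 genes and 22 probe sets. Bnip3l, a mitochondrial receptor related to Bnip3, appears on 3 probe sets that also carry the symbol of its pseudogene, so no value is given for it. The 9 genes stood among 8159 genes with a tested probe set, and 21 of their 22 probe sets passed the filter on dim signals; the exception was Hif1a 1431981_at, which stayed under the filter level on all 20 arrays.

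C2C12 is an established mouse muscle line whose myoblasts fuse into multinucleated myotubes. Myotubes that had been differentiated for 96 h received 0, 1, 10, 100 or 1000 µM H2O2 for 2 h, all in medium with 0.5% horse serum, and the 0 µM group is called untreated here. Total RNA from 20 samples, 4 per dose, was hybridised to Affymetrix Mouse Genome 430A arrays. No gene was deleted or introduced in any group, as far as the labels state, and nothing says that the 4 samples of a dose were separate cultures, so p-values cover no more than the sample-to-sample spread here, and that spread may be technical. The myotube label was checked against markers of muscle differentiation: all 9 (among them Myog, Ckm and Acta1) passed the filter, with summed signals of 57560 to 67693 on untreated arrays and 73145 to 77070 at 1000 µM, where 1 of the 9 (Tnnt3) rose. Of 5 leukocyte markers 1 passed the filter. Markers of cycling cells (5 of 5 tested, 1 lower at 1000 µM), of fibroblasts (5 of 6 tested, 0 called) and of reserve cells (4 of 5 tested, 1 lower) were also measured. Their part in the results was not tested.

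In oxygenated cells the HIF alpha subunits, of which Hif1a encodes the best known, are hydroxylated by the prolyl hydroxylases of the Egln family, bound by the von Hippel-Lindau protein and degraded. When oxygen is scarce hydroxylation stops, the alpha subunit pairs with its partner Arnt, and the dimer binds a short core motif, ACGTG or GCGTG, in its target genes. Those targets shift metabolism away from mitochondrial respiration, which matters in muscle because its fibres meet large swings in oxygen during contraction. Egln1 and Egln3 are both regulators of the pathway and targets of it. P4ha1 and P4ha2 encode catalytic subunits of the enzyme that hydroxylates proline in collagen. Pdk1 encodes a kinase that shuts down pyruvate dehydrogenase. Higd1a encodes a small protein of the inner mitochondrial membrane, Bnip3 an outer membrane protein that marks mitochondria for removal by autophagy, and Ndrg1 a cytosolic stress protein.

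The members are known for their response to low oxygen, so a HIF motif near their starts is not independent of how they were chosen and is given as a description. RefSeq promoters of assembly GRCm38.p6 were at hand for 8 of the members, and the 250 bases before the start of transcription were searched on both strands for ACGTG and GCGTG. These 8 genes had 9 promoters in the table, 2 of them for Pdk1, and 8 of the 9 held at least 1 match, beside 38.6% of 32841 mouse promoters. ACGTG was in 16.6% and GCGTG in 28.2% of all promoters, some of which hold both, and 16.7% held 2 or more matches. The sequences of Higd1a and Bnip3, the genes that rose at the highest dose, are printed 5′ to 3′ along the gene's strand, with the matches in capitals. The Higd1a window lies at chr9:121857797-121858046 and the Bnip3 window at chr7:138909507-138909756, both on the minus strand.
Higd1a: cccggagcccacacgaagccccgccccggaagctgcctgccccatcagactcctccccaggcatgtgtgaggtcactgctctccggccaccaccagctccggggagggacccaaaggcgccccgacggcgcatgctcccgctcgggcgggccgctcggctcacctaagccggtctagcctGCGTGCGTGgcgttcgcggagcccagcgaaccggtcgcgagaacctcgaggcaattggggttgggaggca
Bnip3: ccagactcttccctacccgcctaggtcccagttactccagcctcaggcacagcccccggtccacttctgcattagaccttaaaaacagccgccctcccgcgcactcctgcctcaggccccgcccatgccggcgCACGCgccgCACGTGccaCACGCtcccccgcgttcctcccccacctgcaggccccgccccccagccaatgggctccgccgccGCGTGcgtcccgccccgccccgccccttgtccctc
Higd1a held 2 matches of GCGTG, 70 and 66 bases before the start, which overlap by 1 base in a run of repeats. Bnip3 held 5: ACGTG on each strand at 108 and 107 bases, which together form the palindrome CACGTG, and GCGTG at 117, 99 and 35 bases. The Hif1a window held 3 matches of ACGTG, P4ha1 and P4ha2 held 3 each, Egln1 held 2, Egln3 and 1 Pdk1 promoter held 1 each, and the second Pdk1 promoter held none. A match is a string of letters and says nothing of binding, and matches were present in members whose signal did not pass a test as well as in those that did.

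At 1000 µM the measured members lay above untreated cells, by small amounts. All 9 were higher by the mean log2 difference of their brightest probe set, with a median of 0.27 against -0.05 for all genes, of which 41.8% were higher; after quantile normalization Hif1a turned to -0.02. Of the 9, 7 exceeded the 75th percentile of all genes (0.10). A small rise was not particular to the members. The 9 myotube markers ranged from 0.01 to 0.54 at this dose, with a median of 0.30. Among all genes' differences Bnip3 stood at percentile 97.7, Higd1a at 97.0, Egln1 at 96.8, Ndrg1 at 95.9, Pdk1 at 92.2, P4ha2 at 90.0, P4ha1 at 89.1, Egln3 at 73.5 and Hif1a at 71.3. Only Higd1a and Bnip3 passed the test, 2 of 9, where limma called 2.64% of all genes higher at an adjusted p under 0.05. In the other direction 0 of 9 were called, against 8.05% of all genes. Without adjustment, 2 of 9 had p under 0.05, as did 3761 of all 14379 tested probe sets, a similar share. The test of any difference over the 5 doses called 1 of 9, Higd1a, against 7.81% of all genes. By brightest probe sets, every 1000 µM array lay above every untreated array in 1 of 9 members, Higd1a, and in 6.96% of all genes. For separations between other doses or subsets of arrays, given below, no such share was computed. The cultures were measured in bulk, so more cells with an mRNA and more of it per cell cannot be told apart, nor can fewer cells and less per cell. Signals here are the array software's linear values after each array was scaled to a common trimmed mean, and differences are on the log2 scale with standard errors (SE).

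**Figure D1:**
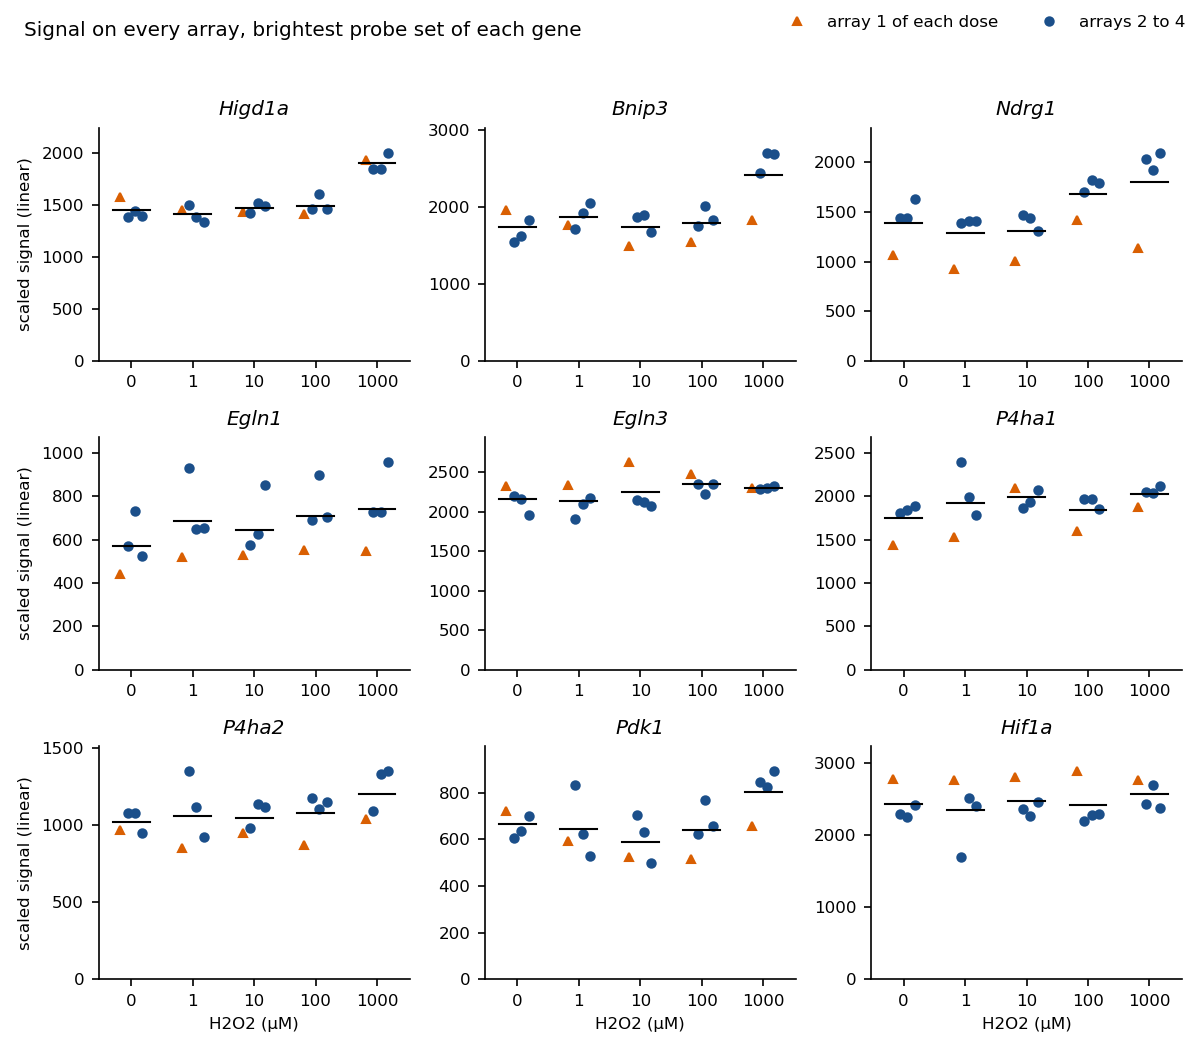
Scaled signal (linear, y axis) of the brightest probe set of each of the 9 measured genes against H2O2 dose (µM, evenly spaced steps on the x axis). Each point is 1 array, triangles mark array 1 of each dose, circles arrays 2 to 4, and the line is the mean of 4. Higd1a at 1000 µM sits between 1846 and 2002, above all its other arrays, while array 1 of Bnip3 at 1000 µM (1826) and every array 1 of Ndrg1 sit below their companions.

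Each array was scaled to the same trimmed mean, but the median of all probe sets shifted by -0.20 on the log2 scale from untreated to 1000 µM. Centring every array on its median instead moved the median of all genes from -0.05 to 0.15 and that of the members from 0.27 to 0.47. Such centring moves every gene alike, so it cannot change the gap between the medians. Quantile normalization can change that gap, and its medians are not given here. The members were not set against genes of like brightness. Under that centring 7 of 9 members were called higher, against 15.6% of all genes, and the split of all calls went from 24.7% higher to 86.3% higher. The arrays also fell apart by replicate number. On the leading principal component (28.2% of variance) the 5 arrays numbered 1 or without a number scored 27.6 to 42.5 and the other 15 scored -16.1 to -6.22, with 1 such array at each dose. Member values are therefore also given with the replicate number as a block and within arrays 2 to 4.

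Higd1a rose at 1000 µM. Its brightest probe set, 1416480_a_at, read 1578, 1386, 1439 and 1396 on untreated arrays 1 to 4. It read 1455, 1498, 1388 and 1332 at 1 µM, 1434, 1423, 1515 and 1495 at 10 µM, and 1413, 1464, 1609 and 1464 at 100 µM. At 1000 µM it read 1933, 1846, 1850 and 2002, above all 16 arrays of the other doses. The mean was 1450 ± 88.7 (SD, n = 4) untreated and 1908 ± 74.7 (SD, n = 4) at 1000 µM, a log2 difference of 0.40 (SE 0.07, limma adjusted p = 0.000635). Against 100 µM the difference was 0.36 (SE 0.07, limma adjusted p = 0.00292). Between untreated and 100 µM it was 0.04 (SE 0.07), with overlapping arrays, so in this probe set the step lay between the top 2 doses. The call held without each of the 20 arrays in turn (adjusted p from 0.000369 to 0.00422).

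The other Higd1a probe sets were dimmer and did not pass. Probe set 1416481_s_at averaged 303 ± 29.9 untreated and 389 ± 34.7 at 1000 µM, a difference of 0.36 (SE 0.20, adjusted p = 0.255), close in size to that of the brightest. Probe set 1448359_a_at averaged 96.8 ± 19.9 untreated, near the filter level of the arrays (77.7 to 106), and 78.8 ± 14.8 at 1000 µM, a difference of -0.30 (SE 0.26, adjusted p = 0.504). It thus pointed the other way, by -0.69 (SE 0.24) relative to the brightest, which was not called by limma over all 5112 pairs of probe sets of a gene (adjusted p = 0.254); 0.606% of pairs were called in that comparison. Taking the mean of the 3 probe sets gave 0.15 for Higd1a at 1000 µM (adjusted p = 0.318), so the call rests on 1416480_a_at.

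Bnip3 rose at 1000 µM in arrays 2 to 4 and not in array 1. Its only probe set, 1422470_at, read 1954, 1536, 1615 and 1833 on untreated arrays. At 1 µM it read 1766, 1715, 1913 and 2054, at 10 µM 1495, 1861, 1898 and 1668, and at 100 µM 1543, 1748, 2011 and 1832. At 1000 µM it read 1826, 2434, 2699 and 2680. The last 3 values lay above all arrays of the other doses and the first lay among them. The means were 1734 ± 193 (SD, n = 4) untreated and 2409 ± 408 (SD, n = 4) at 1000 µM, a log2 difference of 0.46 (SE 0.12, limma adjusted p = 0.0171). With the replicate block the adjusted p was 0.00471. The array 1 pair differed by -0.10, and arrays 2 to 4 by 0.65 (SE 0.08, adjusted p = 7.58e-05). Against 100 µM the difference was 0.42 (SE 0.12, adjusted p = 0.0488), a call that ended in 14 of the 20 fits that left out 1 array. The call against untreated ended without untreated replicate 2 (adjusted p = 0.0598), 1000 µM replicate 3 (0.0635) or 1000 µM replicate 4 (0.0616). Over the 5 doses Bnip3 had an adjusted p of 0.0510. In the comparison of the top 2 doses Higd1a and Bnip3 were the 2 of 9 members called, where 0.76% of all genes were called higher.

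**Figure D2:**
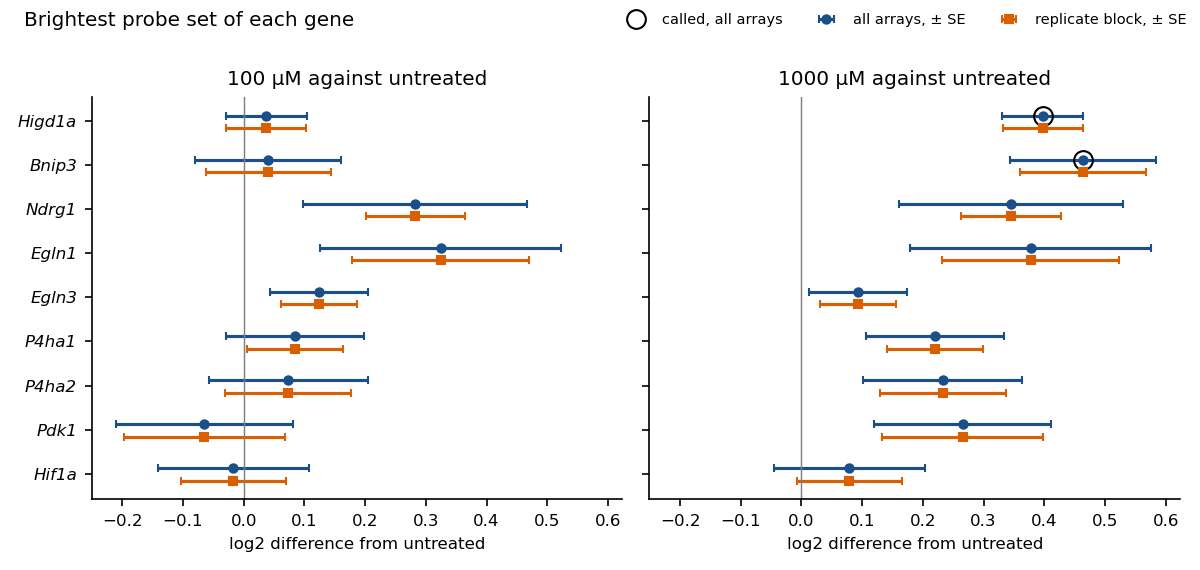
Log2 difference from untreated (x axis) of the brightest probe set of each gene (y axis) at 100 µM (left) and 1000 µM (right). Circles are the fit of all 20 arrays and squares the fit with the replicate number as a block, both ± SE, and open rings mark calls in the fit of all arrays. Rings are on Higd1a (0.40) and Bnip3 (0.46) at 1000 µM, and the bar of Ndrg1 shrinks from an SE of 0.18 to 0.08 with the block.

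Ndrg1 read low on array 1 throughout. Its brightest probe set, 1420760_s_at, read 1065, 1443, 1436 and 1629 on untreated arrays, 921, 1391, 1414 and 1407 at 1 µM, and 1005, 1474, 1445 and 1310 at 10 µM. At 100 µM it read 1424, 1697, 1819 and 1793, and at 1000 µM 1139, 2040, 1921 and 2097. Array 1 was the lowest at each dose. Within arrays 2 to 4 every value at 100 and 1000 µM exceeded every value at the 3 lower doses. With array 1 included the doses overlapped, and the share of all genes with such a separation was not computed. The means were 1393 ± 236 (SD, n = 4) untreated and 1799 ± 446 (SD, n = 4) at 1000 µM. In the fit of all arrays the log2 difference was 0.28 (SE 0.18, adjusted p = 0.632) at 100 µM and 0.34 (SE 0.18, adjusted p = 0.246) at 1000 µM, and neither was called.

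The block changed the Ndrg1 call. With it the 1000 µM difference of 0.34 had an SE of 0.08 and passed (limma adjusted p = 0.00735), and within arrays 2 to 4 it was 0.43 (SE 0.07, adjusted p = 0.000317). By their brightest probe sets, 3 of 9 members (Higd1a, Bnip3 and Ndrg1) were then called at 1000 µM. The share of all genes called higher was 6.28% with the block, 7.64% with a term for the arrays numbered 1, and 5.63% within arrays 2 to 4. At 100 µM the block gave 0.28 (SE 0.08, adjusted p = 0.0734), and the term for the arrays numbered 1 an adjusted p of 0.0388, the 1 member called there where 2.21% of all genes were. Between 10 and 100 µM the block, which leaves out the unnumbered 10 µM array, gave 0.39 (SE 0.09, adjusted p = 0.0314) against 0.37 (SE 0.18, adjusted p = 0.644) without it. Ndrg1 was the 1 member called in that comparison, against 1.3% of all genes with the block and 1.58% within arrays 2 to 4 (0.33, adjusted p = 0.0107).

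The other 4 Ndrg1 probe sets shared the pattern. On all 5 probe sets array 1 was lower than the mean of arrays 2 to 4 at 5 of 5 doses, by a median of -0.49 for the brightest and of -1.15 for 1423413_at. Probe set 1456174_x_at read 566, 1036, 1040 and 1086 untreated, 832, 1281, 1348 and 1259 at 100 µM and 1024, 1435, 1398 and 1480 at 1000 µM. With the block its difference was 0.36 (SE 0.07, adjusted p = 0.00700) at 100 µM and 0.55 (SE 0.07, adjusted p = 4.11e-05) at 1000 µM. Probe set 1450976_at also passed at both doses with the block (0.35 and 0.37, adjusted p = 0.0258 and 0.00485), and 1450977_s_at passed at 1000 µM (0.42, adjusted p = 0.0204). Probe set 1423413_at did not (0.32, adjusted p = 0.142). With the block, 1.79% of all genes were called higher at 100 µM and 6.28% at 1000 µM. Without the block none of the 5 was called, with adjusted p from 0.130 to 0.649 at 1000 µM. Probe sets of 1 gene share a transcript and are not replicates.

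**Figure D3:**
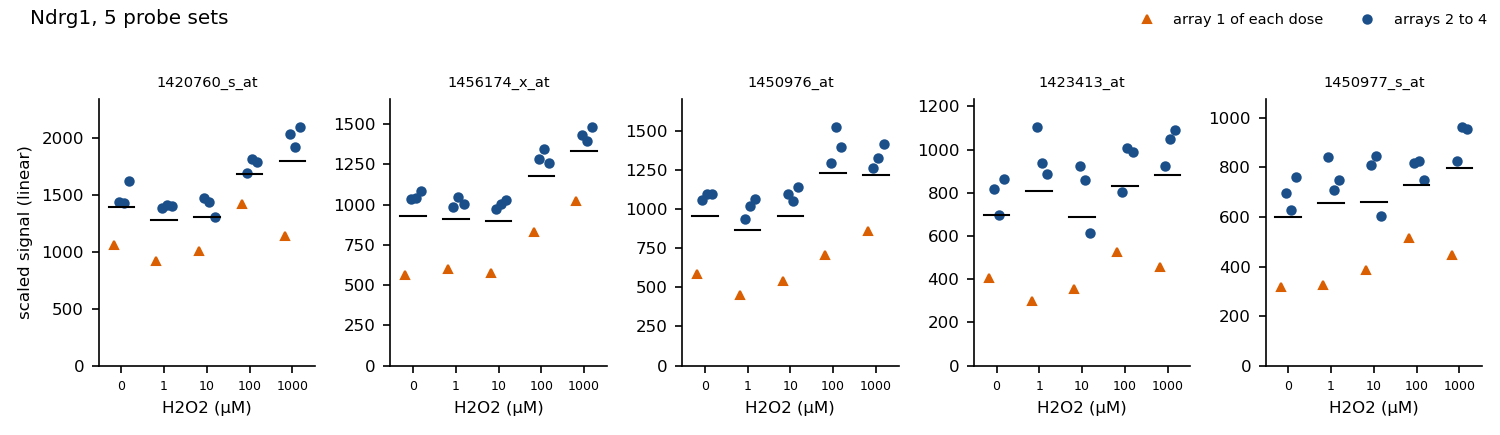
Scaled signal (linear, y axis) of the 5 Ndrg1 probe sets against H2O2 dose (µM). Points are arrays (triangles array 1, circles arrays 2 to 4) and lines are means of 4. Array 1 is the lowest of its dose in every panel, as at 1000 µM in 1420760_s_at, where it reads 1139 beside 1921 to 2097.

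The oxygen sensors Egln1 and Egln3 were not called in the fit of all arrays. Egln1, the main hydroxylase of HIF alpha, read 443, 572, 733 and 524 untreated on 1451110_at and 548, 726, 728 and 956 at 1000 µM, with overlapping arrays. At the doses between it read 520 to 927 at 1 µM, 531 to 849 at 10 µM and 551 to 897 at 100 µM, with array 1 the lowest at each. The difference was 0.38 (SE 0.20, adjusted p = 0.237) at 1000 µM and 0.32 (SE 0.20, adjusted p = 0.602) at 100 µM, and the 95% interval at 1000 µM ran from -0.04 to 0.79. The second Egln1 probe set, 1423785_at, gave 0.22 (SE 0.13, adjusted p = 0.310) at 1000 µM. Its 1000 µM arrays (636 to 709) all lay above its untreated arrays (498 to 626). The same held for the brightest probe sets of 6.96% of all genes. From 100 to 1000 µM 1423785_at differed by 0.24 (SE 0.13, limma adjusted p = 0.352) in the fit of all arrays. Within arrays 2 to 4 that difference was 0.42 (SE 0.09, adjusted p = 0.00750), where 2.41% of all genes were called higher. Array 1 of this probe set read 784 at 100 µM, above all its 1000 µM arrays (636 to 709). Egln3, which also hydroxylates HIF alpha, varied little on 1418649_at, from 2159 ± 149 untreated to 2299 ± 16.6 at 1000 µM, a difference of 0.09 (SE 0.08, adjusted p = 0.509) with an interval from -0.08 to 0.26. Its other probe set, 1418648_at, averaged 1007 ± 129 and 1199 ± 87.4, a difference of 0.26 (SE 0.11, adjusted p = 0.128) that passed within arrays 2 to 4 (0.39, SE 0.10, adjusted p = 0.0151). In that fit 5.63% of all genes were called higher at 1000 µM.

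Hif1a itself was not called at any dose on its brightest probe set. Probe set 1427418_a_at read 2784, 2300, 2247 and 2422 untreated and 2773, 2438, 2697 and 2379 at 1000 µM, a difference of 0.08 (SE 0.12, adjusted p = 0.745) with a 95% interval from -0.18 to 0.34. Array 1 was the highest at all 5 doses here. On 1416035_at, a dimmer probe set, the low doses stood out. It read 642, 560, 533 and 552 untreated, 476, 468, 465 and 452 at 1 µM, 430, 464, 406 and 437 at 10 µM, 620, 490, 485 and 584 at 100 µM, and 593, 613, 607 and 595 at 1000 µM. Every array at 1 and 10 µM lay below every array at the other 3 doses. How many of all genes do so was not computed. The test over the 5 doses called this probe set (limma adjusted p = 0.00379). In single comparisons with untreated it was not called, at -0.29 (SE 0.09, adjusted p = 0.572) for 1 µM and -0.39 (SE 0.09, adjusted p = 0.413) for 10 µM. At 10 µM it differed from 1427418_a_at by -0.42 (SE 0.14, adjusted p = 0.984 over the pairs of probe sets, of which 0% were called). The last tested probe set, 1448183_a_at, averaged 365 ± 62.0 untreated and 333 ± 25.7 at 1000 µM, a difference of -0.12 (SE 0.25, adjusted p = 0.818).

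**Figure D4:**
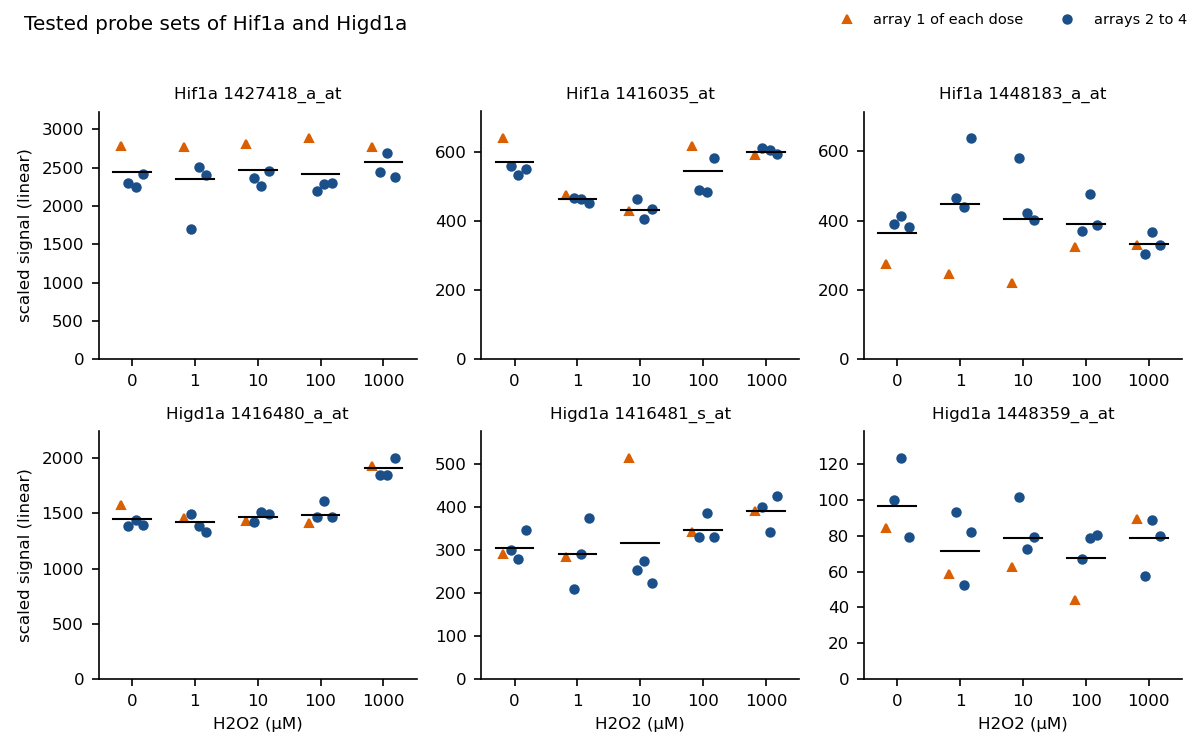
Scaled signal (linear, y axis) of the 3 tested probe sets of Hif1a (top) and of Higd1a (bottom) against H2O2 dose (µM). Points are arrays (triangles array 1, circles arrays 2 to 4) and lines are means of 4. Hif1a 1416035_at is low at 1 and 10 µM (406 to 476) in all 8 arrays, and Higd1a 1416480_a_at is high at 1000 µM while 1448359_a_at is not.

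The collagen prolyl hydroxylases and Pdk1 had small positive differences at 1000 µM that were not called in the fit of all arrays. P4ha1 averaged 1746 ± 207 untreated and 2024 ± 102 at 1000 µM on 1452094_at, a difference of 0.22 (SE 0.11, adjusted p = 0.225), and its untreated array 1 (1439) was the lowest of all 20. Its second probe set, 1426519_at, gave 0.01 (SE 0.11, adjusted p = 0.966). At 1, 10 and 100 µM P4ha1 1452094_at read 1534 to 2395, 1863 to 2094 and 1601 to 1966, so the doses overlapped. P4ha2 averaged 1017 ± 71.3 and 1201 ± 161, a difference of 0.23 (SE 0.13, adjusted p = 0.273), and read 851 to 1348 over the doses between. Pdk1 read 724, 606, 635 and 702 untreated and 657, 845, 824 and 892 at 1000 µM on 1423747_a_at, so that arrays 2 to 4 but not array 1 exceeded all untreated arrays. It read 527 to 834 at 1 µM, 499 to 705 at 10 µM and 516 to 770 at 100 µM. Its difference was 0.27 (SE 0.15, adjusted p = 0.259). The array 1 pair differed by -0.14 and arrays 2 to 4 by 0.40. On the second Pdk1 probe set, 1423748_at, the difference was 0.23 (SE 0.10, adjusted p = 0.137), and within arrays 2 to 4 it was 0.37 (SE 0.08, adjusted p = 0.00721). Within arrays 2 to 4, 5.63% of all genes were called higher at 1000 µM. When arrays were weighted by quality, 7 of 9 members were called at 1000 µM, Pdk1 among them (0.39, adjusted p = 0.00408), against 10.3% of all genes.

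**Figure D5:**
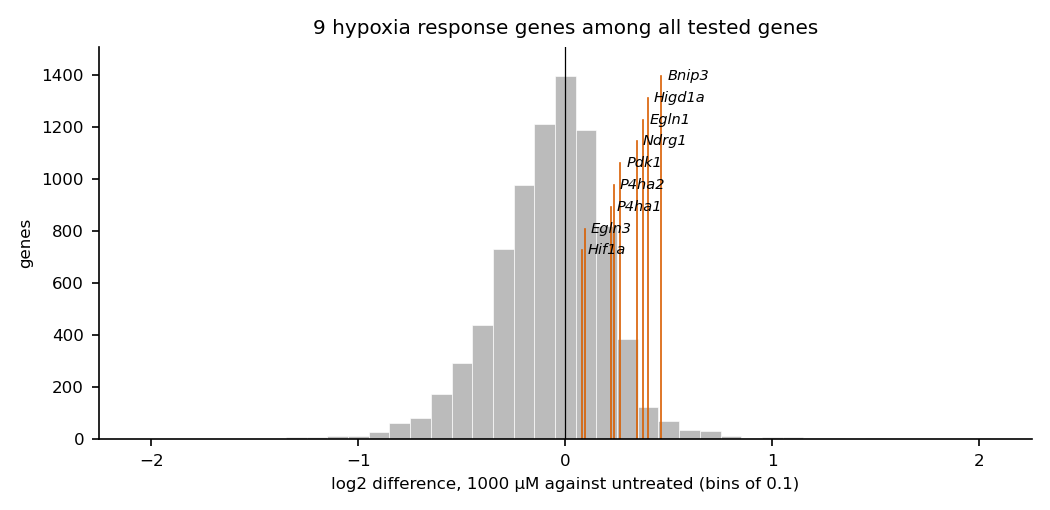
Number of genes (y axis) by log2 difference at 1000 µM against untreated (x axis, bins of 0.1; 11 of 8159 genes lie outside the plotted range), with lines at the 9 members. All 9 members lie right of 0, from Hif1a at 0.08 to Bnip3 at 0.46, and line heights only separate the labels.

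Below 1000 µM no member was called against untreated in the fit of all arrays. At 1 µM 4 were higher and 5 lower, with a median of -0.02 beside -0.02 for all genes. At 10 µM 6 were higher and 3 lower, with a median of 0.02 beside -0.02. At 100 µM 7 were higher and 2 lower, with a median of 0.07 beside -0.02. These signs are not firm: Hif1a and Pdk1 turned with median centring, Higd1a turned with the mean of its probe sets (-0.10), and Bnip3 and P4ha1 turned when single arrays were left out (lowest -0.02 and -0.0057). By their brightest probe sets limma called 0 of 9 at each of these doses, where it called 0% of all genes at 1 µM, 0.0123% at 10 µM and 0.993% as higher at 100 µM. Between 10 and 100 µM it called 0 of 9 as well (7 higher, 2 lower), against 0.87% of all genes. Without adjustment 0 of 9 brightest probe sets had p under 0.05 at 1, 10 or 100 µM, beside 960, 717 and 1604 of 14379 tested probe sets; Hif1a 1416035_at, described above, was under it at 1 and 10 µM. The SE of a member's difference ran from 0.07 for Higd1a to 0.20 for Egln1, which sets the size of change that 4 arrays could show.

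The rest of the pathway was counted from lists of genes, each represented by its brightest probe set. Beside these counts, limma called 0.993% of all genes higher at 100 µM, and 2.64% higher and 8.05% lower at 1000 µM. Among HIF subunits and coactivators 4 of 7 genes were tested; 0 were called at 100 µM, and at 1000 µM only Crebbp, a histone acetyltransferase that HIF recruits, fell (-0.59, SE 0.17, adjusted p = 0.0309). All 8 genes of oxygen sensing and HIF turnover were tested and 0 were called at either dose. Egln2, the remaining Egln hydroxylase, differed by 0.16 (SE 0.11, adjusted p = 0.403) at 1000 µM. Of 5 further genes of collagen hydroxylation and crosslinking 0 were called. P4hb, the partner subunit of P4ha1 and P4ha2, differed by 0.30 (SE 0.11, adjusted p = 0.0809).

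Among 7 genes that control pyruvate dehydrogenase, Pdk4, the kinase isoform tied to fasting and fat use in muscle, rose at 100 µM by 0.72 (SE 0.09, adjusted p = 0.000116) and was at 0.07 (SE 0.09, adjusted p = 0.687) at 1000 µM. At 100 µM Pdk1 was at -0.06 (SE 0.15). In the list of mitophagy genes with the NDRG and HIGD relatives 10 of 11 were tested. Bcl2l13, another mitophagy receptor, fell at 1000 µM (-0.34, SE 0.10, adjusted p = 0.0344), and the rest were not called. The relatives Ndrg2, Ndrg3, Ndrg4 and Higd2a were at -0.34, -0.01, -0.07 and 0.06 there, with adjusted p from 0.396 to 0.971.

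Other known HIF targets moved in both directions. Of 33 tested, 2 rose and 1 fell at 100 µM, and 7 rose and 2 fell at 1000 µM. Of all genes, 0.993% were called higher at 100 µM, and 2.64% higher and 8.05% lower at 1000 µM. The share called lower at 100 µM is not given. The targets' medians were 0.12 at 100 µM and 0.14 at 1000 µM, beside -0.02 and -0.05 for all genes. The counts of targets use the brightest probe sets only. Vegfa and Pgk1, not counted as called at 1000 µM, each had 1 other probe set called there. At 100 µM Hmox1, the haem-degrading enzyme that is also a target of the oxidant sensor NRF2, rose by 1.96 (SE 0.13, adjusted p = 6.15e-09). Ddit4, an inhibitor of mTOR signalling, rose by 0.82 (SE 0.11, adjusted p = 0.000208), and Ccng2, an atypical cyclin, fell by 0.39 on the log2 scale (SE 0.08, adjusted p = 0.0101). At 1000 µM Hmox1 was higher by 1.45 (SE 0.13, adjusted p = 3.55e-07). Adm, which encodes the vasodilator peptide adrenomedullin, rose by 1.55 (SE 0.28, adjusted p = 0.00123), from a mean signal of 43.2 that is below the filter level to 126. Its means at 1, 10 and 100 µM (46.0, 44.1 and 46.9) were below that level too. Adm may thus have passed the filter only through the 1000 µM arrays, and it is counted among the 7 that rose. Fam162a, a mitochondrial protein, rose by 0.60 (SE 0.17, adjusted p = 0.0296). Edn1, which encodes the vasoconstrictor endothelin, fell by 3.35 on the log2 scale (SE 0.27, adjusted p = 1.18e-07), from 131 to 12.8, again below the filter level. The remaining genes that rose were glucose transport and glycolysis genes and Mxi1, at 0.28 to 0.47.

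Across the 20 arrays Higd1a and Bnip3 correlated at r = 0.71, Bnip3 and Pdk1 at 0.71, and Higd1a and Pdk1 at 0.66. Egln1, P4ha1 and P4ha2 had r from 0.73 to 0.76 among them, and each had an r of -0.58 or lower with Hif1a. Pdk1 and Ndrg1 each had an r of 0.61 with P4ha2. Array 1 differed from arrays 2 to 4 by a median over doses of 0.26 for Hif1a. For Egln1, P4ha1 and P4ha2 that median was -0.46, -0.27 and -0.27. Correlations within arrays 2 to 4 were not computed. The values of r are descriptions over arrays that share doses and replicate numbers. The 3 genes most like Higd1a were Fosb (r = 0.91), an immediate early transcription factor that was higher by 3.01 at 1000 µM, the noncoding transcript Gt(ROSA)26Sor (0.88) and the chaperone gene Hspa1a (0.87). The 3 most like Bnip3 were Mxi1 (0.84), Tmem45a (0.83) and Marcksl1 (0.83).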

How the data were processed

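Groups and replicate numbers came from the sample titles. A 10 µM array without a number is called replicate 1 here, was left out of fits with the replicate block, and was placed with the arrays numbered 1 because its values grouped with theirs. The authors deposited linear intensity values, 1 per probe set, from Microarray Suite 5.0, per the labels and the submitters' processing notes. Trimmed means (2%) were 500.1 to 500.2 per array and medians 150.9 to 185.2. Each array was read as 1 channel, although a label entry lists dyes in a pair. With arrays there is no read depth, and 4 arrays per dose limit the precision.

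The deposited signals were rescaled to the same trimmed mean, floored at 1 and put on the log2 scale. Of 22690 probe sets, 64 controls were dropped. Testing required a signal at or above the array's 40th percentile on 4 or more arrays, which left 14379. The 5 groups were fitted jointly in limma 3.58.1 (R 4.3.3; lmFit, eBayes with an intensity trend), two-sided, with Benjamini-Hochberg adjustment over all tested probe sets within a comparison and a threshold of 0.05. The script was tested on simulated data. Probe sets with exactly 1 symbol in the platform annotation numbered 20393 (691 had several and 1606 none), and 22 member probe sets matched a RefSeq table of GRCm38.p6 by Entrez identifier with 0 symbols changed. The brightest tested probe set on average stands for its gene. No build is named for the array.

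The members, gene lists and named genes were chosen with earlier results of these data known. The text names every member, relatives of members, and the 3 genes most correlated with a called member. Other pathway genes are named where called, at most 4 per list and dose by size. Vegfa and Pgk1 are named for a call of another probe set. Deviations of arrays from their group means were correlated between doses. For arrays of the same number, array 1 included, r was 0.115 to 0.494 at 100 µM and 0.185 to 0.513 at 1000 µM against untreated. Arrays 2 to 4 of different numbers correlated at 0.135 to 0.219 and 0.135 to 0.214. Between 10 and 100 µM, where array 1 was left out, the same numbers gave 0.123 to 0.224 and different numbers 0.128 to 0.257. Against untreated the same-number ranges include array 1 and the others do not, so they cannot be set side by side for arrays 2 to 4. Between 10 and 100 µM the ranges cover arrays 2 to 4 alike and overlap. Pairing among arrays 2 to 4 is therefore not settled. The main fit had no replicate term, and the block was an alternative. Other scalings, floors, filters, array weights, gene summaries, the crossed rule of the design text and fits without each array were tried as alternatives.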

Additional observations from a re-analysis of the deposited data

Results flagged for a closer look

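In each dose group of 4 arrays, a member probe set's highest or lowest array was compared with the rest by its gap relative to the group's range. Of 105 groups, 17 had an array set far apart, where chance gives about 1 in 20, and in 16 of them it was replicate 1. That chance rate is for independent groups, whereas these share arrays and genes. The share over all tested probe sets was not computed. The arrays numbered 1 also stood apart on the leading principal component of all tested probe sets, so the flags are not particular to the members. The causes were not tested.

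Ndrg1 held 11 of these groups, each with replicate 1 low. On 1456174_x_at replicate 1 read 565.5 untreated, 598.7 at 1 µM, 575.8 at 10 µM, 831.9 at 100 µM and 1024 at 1000 µM. On 1450976_at it read 586.7 untreated, 453.2 at 1 µM and 540.7 at 10 µM. On 1420760_s_at it read 920.8 at 1 µM and 1139 at 1000 µM, and on 1423413_at 299 at 1 µM. All 5 Ndrg1 probe sets were lower on replicate 1 at 5 of 5 doses.

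In 3 other groups replicate 1 was high: Hif1a 1427418_a_at at 100 µM (2886), Egln1 1423785_at at 100 µM (784.3) and Egln3 1418649_at at 10 µM (2624). It was low for P4ha1 1452094_at untreated (1439) and Pdk1 1423748_at at 100 µM (520.7). The remaining group was Pdk1 1423748_at at 1 µM, where replicate 4 was low (499.3).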

How the results depend on the processing

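Of the alternatives tried, none reversed a called value. At 1000 µM against untreated, where 2 members were called, median centring and array weights gave 7 each, the mean of a gene's probe sets 1 (Bnip3) and the crossed rule 0; leaving out 1 array gave 1 to 3. At 100 µM against untreated (0 called) the term for the arrays numbered 1 gave 1 (Ndrg1). At 100 against 10 µM (0 called) the replicate block, that term and replicates 2 to 4 gave 1 each (Ndrg1). At 1000 against 100 µM (2 called) quantile normalization, no filter and the mean of probe sets gave 1 each, array weights 3 (with Pdk1), the crossed rule 0, and leaving out 1 array 1 to 2. Over the 5 doses (1 called) median centring and a filter on all 20 arrays gave 2, the replicate block, the term for arrays numbered 1 and replicates 2 to 4 gave 3, array weights 4, and leaving out 1 array 1 to 3. The crossed rule asks for a mean fold above 1.75, which no member reached. Otherwise the causes were not tested.

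With the replicate block the calls of Higd1a and Bnip3 held, Ndrg1 was added at 1000 µM (adjusted p = 0.00735), and no other call of a member's brightest probe set changed against untreated. At 1000 µM Higd1a was called in 29 and Bnip3 in 27 of 30 alternatives other than the crossed rule, Ndrg1 in 6, P4ha1, P4ha2 and Pdk1 in 2 each, and Egln1 and Egln3 in 1 each. Dim probe sets limit what can be said: Higd1a 1448359_a_at lay near the filter level.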
